A study of Mus musculus with 8 samples.

Results

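The transcripts of 8 mouse genes of the fibroblast growth factor (FGF) system were followed in 8 RNA-seq libraries of V6.5 embryonic stem (ES) cells. The genes were chosen by name: 4 secreted ligands (Fgf4, Fgf5, Fgf15 and Fgf17) and 4 receptor tyrosine kinases (Fgfr1, Fgfr2, Fgfr3 and Fgfr4), of 24921 genes in the count tables. Reads were summed over the RefSeq transcript accessions of each gene. The filter on low counts left 10311 genes to test, and 5 of the 8 were among them: Fgf4, Fgf5, Fgf15, Fgfr2 and Fgfr4. Fgf17, Fgfr1 and Fgfr3 had too few reads.

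FGF ligands bind receptor tyrosine kinases together with heparan sulfate or Klotho co-receptors, and the activated receptor signals through adaptors, RAS, RAF, MEK and ERK. Mouse ES cells make FGF4 themselves, and FGF4 acting through ERK is known to move them out of naive pluripotency toward lineage priming. 2i medium, named for these cells in the growth protocol, holds inhibitors of MEK and GSK3 and so blocks that pathway at MEK.

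The 4 groups had 2 poly(A) libraries each. In the OCT4-FKBP line the pluripotency transcription factor OCT4, encoded by Pou5f1, carries an FKBP tag through which a small molecule can send it to degradation, and the cells received the degrader labelled dTag9 or its solvent DMSO for 24 h. In the wild-type line (WT), without the tag, LIF had been withdrawn for 5 days or was present; LIF is the cytokine that sustains mouse ES cell self-renewal through STAT3. The label for the withdrawal does not say whether 2i was kept. No untagged cells were given dTag9, so an effect of the compound and an effect of OCT4 loss cannot be told apart. The labels do not say whether the OCT4-FKBP line is a single clone, nor that the libraries of a group came from separate cultures, so every p-value rests on differences between libraries that may be technical only. In bulk RNA, fewer cells of a type and less RNA per cell cannot be told apart.

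Libraries held 7221451 to 11447468 counted reads, and replicates differed by more than sampling noise. Reads lying in sequence shared by several accessions of a gene were counted for none of them. Ambiguous reads, which can also lie where different genes overlap, made up 42.5% of counted plus ambiguous reads. The share that comes from accessions of the same gene is not known. Pou5f1 RNA averaged 87.4 ± 3.94 CPM (read counts scaled to library size) in dTAG libraries and 77.6 ± 0.218 CPM in DMSO libraries (SD, n = 2 each). The edgeR change did not pass the test (log2 0.17, adjusted p = 0.18). Pou5f1 has 2 annotated transcripts, so only sequence that belongs to 1 of them was counted. Degradation acts on the protein, so RNA does not check it. The naive pluripotency markers, which define the labelled cell type, had a summed level of 2693 and 2725 CPM in dTAG libraries, 7692 and 7580 CPM in DMSO libraries, 1896 and 1865 CPM in no-LIF libraries and 7193 and 7387 CPM in LIF libraries. Nr5a2 of that list was at 0 reads in 1 no-LIF library. Most of the no-LIF sum is Tdgf1, averaging 1139 CPM in no-LIF libraries and 713 CPM in LIF libraries. In the other groups Tfcp2l1 is the largest part, averaging 1027 CPM in dTAG, 3573 CPM in DMSO and 3179 CPM in LIF libraries. Without LIF, 11 of the 12 listed genes fell and 1, Tdgf1, rose (median log2 -2.73), beside 34.4% of all tested genes lower. With dTag9, 10 fell and 0 rose (median log2 -1.14), beside 20.3% lower.

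How much of each gene the counts can see differs widely. Fgf4, Fgf15 and Fgfr4 have 1 accession each, so no bases are lost to sharing within the gene. The other 5 genes have several accessions, and only bases that belong to 1 of them can collect reads. Fgfr1 had 0 reads in all 8 libraries over 3 accessions, of which 2 have no exclusive base in the GRCm38 models and the third has 967, none coding. Fgfr3 had 1 read over 7 accessions, in a no-LIF library. The zeros of Fgfr1 and Fgfr3 therefore do not speak to whether ES cells express these receptors. Fgf5 reads (125 in all) came from NM_010203 alone, which has 1901 exclusive bases, while NM_001277268 has 0 exclusive bases and 0 reads. Fgfr2 reads (186 in all) and Fgf17 reads (16 in all) are treated in the same way where they are described.

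Fgf4 is the abundant member, and it carries a well-studied OCT4 and SOX2 enhancer in the untranslated end of its last exon. The letters of that element are shown because OCT4 is the factor that carries the tag. The SOX and POU parts were located in the GRCm38 Fgf4 transcript as CTTTGTNNNNATGCNAAT, a pattern written from the known element. It lies at chr7:144864394-144864411 on the plus strand, in exon 3 of 3, 1456 bases after the last coding base. Capitals mark the SOX part and then the POU part, with 6 bases on each side (chr7:144864388-144864417, GRCm38):
Fgf4 element: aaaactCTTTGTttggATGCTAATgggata
On either strand the pattern was found in 5 of 141767 GENCODE transcripts (0.0035%), from 3 of 55450 genes (0.0054%), and in 1 of the 8 FGF genes. A match in letters is a description, and binding was not measured here.

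Promoters from RefSeq (GRCm38.p6) run from 250 bases before to 50 bases after the start of transcription; 5 of the 8 genes matched, with 6 windows because Fgfr3 has 2. Fgf15, Fgf17 and Fgfr1 had no entry. The Fgf4 and Fgfr2 promoters are shown because these genes moved in opposite directions in both comparisons. Capitals mark GC boxes, GGGCGG on either strand:
Fgf4, chr7:144861136-144861435, plus strand: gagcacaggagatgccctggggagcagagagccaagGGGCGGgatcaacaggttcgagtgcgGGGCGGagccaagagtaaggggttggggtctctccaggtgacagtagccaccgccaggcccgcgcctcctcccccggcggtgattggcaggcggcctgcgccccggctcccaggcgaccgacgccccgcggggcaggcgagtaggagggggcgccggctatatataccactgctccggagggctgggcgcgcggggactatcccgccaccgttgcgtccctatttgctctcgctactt
Fgfr2, chr7:130266759-130267058, minus strand: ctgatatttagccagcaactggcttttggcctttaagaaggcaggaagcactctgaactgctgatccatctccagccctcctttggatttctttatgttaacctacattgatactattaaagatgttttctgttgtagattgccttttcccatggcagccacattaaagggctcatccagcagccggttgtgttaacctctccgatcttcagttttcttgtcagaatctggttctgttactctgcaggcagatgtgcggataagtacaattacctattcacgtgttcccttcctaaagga
The Fgf4 window holds 2 GC boxes and the Fgfr2 window 0. Over the 6 windows, 5 hold a GC box, against 35.7% of 32851 promoters. The octamer ATGCAAAT was found in 0 of the 6 windows and in 1.74% of all promoters. The SOX core CATTGT (12.6% of all promoters), the STAT letters TTCCNGGAA (1.15%) and the ETS letters CCGGAAGT (3.89%) were likewise in 0 of the 6. Motifs were searched on both strands, and no match says only that these letters are not in this window.

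**Figure D1:**
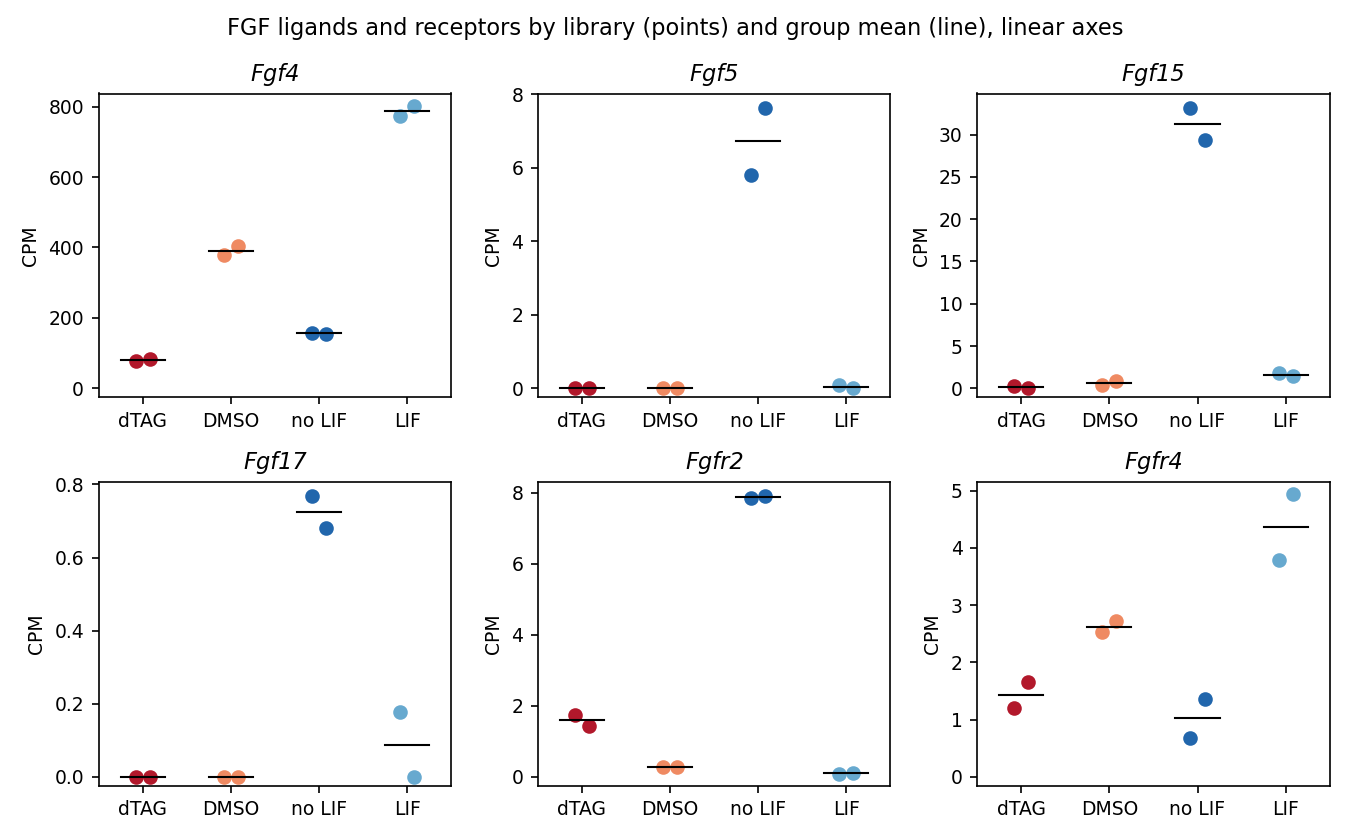
Level in CPM (linear axis, a separate scale for each gene) of the 6 genes with more than 1 read, in every library; points are libraries and lines are group means of 2. Fgf4 and Fgfr4 are lower in dTAG than in DMSO libraries and in no-LIF than in LIF libraries; Fgf5, Fgf15, Fgf17 and Fgfr2 are highest in the no-LIF libraries, and of these 4 genes Fgfr2 alone has a dTAG mean above 1 CPM, at 1.60 CPM.

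Treatment with dTag9 was compared with solvent first. After 24 h of dTag9, the Fgf4 transcript fell to 79.7 ± 4.26 CPM, against 391 ± 17.0 CPM with DMSO (SD, n = 2 each), while the few reads of Fgfr2 became more frequent. Fgf4, the ligand that ES cells release, had 76.7 and 82.7 CPM in dTAG libraries, against 379 and 403 CPM in DMSO libraries. Both dTAG libraries lay far below both DMSO libraries. The edgeR quasi-likelihood fit gave a log2 fold change of -2.30 (SE 0.06, 95% interval -2.42 to -2.17), or 4.91-fold lower, with an adjusted p of 1.9e-20. In this comparison 40.5% of tested genes passed the threshold of 0.05 (20.3% of tested genes as lower), so passing is common; by size, 272 genes fell more than Fgf4.

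Fgf15 encodes the mouse counterpart of human FGF19, an endocrine ligand known from the gut and also expressed in the embryo. It had 3 and 0 reads in dTAG libraries, against 3 and 10 reads in DMSO libraries. Reads were fewer after dTag9 in sum, but 1 library of each group had the same 3 reads. The ratio of reads per depth was 0.235 (exact 95% interval 0.0430 to 0.855, counting error only), and the edgeR adjusted p was 0.056 (log2 -2.0, SE 0.83), short of the threshold. Its fitted value depended on single libraries: it was -5.78 without dTAG replicate 1, which leaves that group at 0 reads, -1.07 without dTAG replicate 2 and -1.29 without DMSO replicate 2. Fgf5, a ligand of the post-implantation epiblast that limits hair growth in adults, had 0 reads in all 4 libraries of the tagged line. Fgf17, a ligand of the FGF8 subfamily, also had 0 reads in these 4 libraries. A count of 0 allows up to 3 reads over a group, or 0.165 CPM in the dTAG group and 0.162 CPM in the DMSO group, over the sequence that the counting can see.

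Fgfr2 encodes a receptor for several FGFs, known in the early embryo from trophectoderm and primitive endoderm. It had 1.75 and 1.44 CPM in dTAG libraries, against 0.281 and 0.264 CPM in DMSO libraries. These rest on 16 and 13 reads in dTAG libraries and on 2 and 3 reads in DMSO libraries, and the groups did not overlap. The fitted change was 2.50 on the log2 scale (SE 0.56, 95% interval 1.36 to 3.65), or 5.68-fold higher, with an edgeR adjusted p of 0.00066. The share of all tested genes that passed as higher was 20.1%, and 163 genes rose more than Fgfr2. Fgfr2 passed the filter on low counts through the no-LIF and the dTAG libraries, where it is high. Fgfr4, a receptor known for its pairing with Klotho beta in liver, had 1.20 and 1.66 CPM in dTAG libraries, against 2.53 and 2.73 CPM in DMSO libraries. Its groups did not overlap either, but the change of -0.88 on the log2 scale (SE 0.37) missed the threshold in edgeR (adjusted p = 0.062).

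Markers of other lineages moved in the same libraries, where 20.1% of all tested genes passed as higher and 20.3% as lower. Trophoblast markers summed to 282 and 262 CPM in dTAG libraries, against 61.9 and 64.2 CPM in DMSO libraries, and 5 of the 8 tested genes of that list (12 listed) rose while 0 fell. Cdx2, at 180 CPM in dTAG libraries and 32.9 CPM in DMSO libraries, made up most of that sum, and Gata3 was at 0 reads over 4 accessions. Primitive endoderm markers summed to 452 and 402 CPM in dTAG libraries, against 65 and 62.3 CPM in DMSO libraries, with 2 of 4 tested (10 listed) higher and 0 lower. Nearly the whole sum is Lamb1, at 407 CPM in dTAG libraries and 62.0 CPM in DMSO libraries; Gata6 averaged 18.7 CPM in dTAG libraries and 0.536 CPM in DMSO libraries, and Gata4, Foxa2 and Col4a1, each with several accessions, were at 0 reads. Formative and epiblast markers summed to 87.9 and 77.9 CPM in dTAG libraries, against 131 and 137 CPM in DMSO libraries. Of their 7 tested genes, 1 rose and 3 fell. Mesoderm and streak markers summed to 13.2 and 12.5 CPM in dTAG libraries, against 29.3 and 24.8 CPM in DMSO libraries. Of their 6 tested genes, 1 rose and 3 fell. Of 5 fibroblast markers with a fold change, 1 rose and 1 fell. The part of cells of these lineages in the Fgfr2 reads was not tested.

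Withdrawal of LIF was compared with its presence next. After 5 days without LIF, Fgf4 and the receptor Fgfr4 fell, and the ligands Fgf5 and Fgf15 and the receptor Fgfr2 rose. Fgf4 had 158 and 155 CPM in no-LIF libraries, against 773 and 801 CPM in LIF libraries. The groups were far apart and each was tight, with SDs of 2.16 CPM without LIF and 20.3 CPM with LIF. The log2 fold change was -2.33 (SE 0.06, 95% interval -2.44 to -2.21), 5.01-fold lower, with an edgeR adjusted p of 3.9e-22. This comparison called 68.4% of tested genes, 34.0% higher and 34.4% lower, and 694 genes fell more than Fgf4.

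Fgf5 had 68 and 56 reads in no-LIF libraries, against 1 and 0 reads in LIF libraries. That is 5.80 and 7.64 CPM in no-LIF libraries, against 0.0883 and 0 CPM in LIF libraries, with no overlap. The ratio of reads per depth was 129 (exact 95% interval 22.7 to 5139), an interval that is wide because the LIF group holds a single read. The edgeR adjusted p was 6.3e-10 at a fitted log2 change of 6.70; without LIF replicate 1, which holds that read, the fit gave 8.92, and without LIF replicate 2 it gave 6.05. Fgf15 had 33.2 and 29.3 CPM in no-LIF libraries, against 1.77 and 1.41 CPM in LIF libraries. It rose by 4.28 on the log2 scale (SE 0.22), 19.4-fold, with an edgeR adjusted p of 2.1e-15. Its sequence belongs to 1 accession, so unlike Fgf5 it loses no bases to sharing within the gene. By the size of the rise, 128 genes exceeded Fgf5 and 363 exceeded Fgf15.

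Fgf17 had 9 and 5 reads in no-LIF libraries, against 2 and 0 reads in LIF libraries, all from NM_008004. The other of its 2 accessions had 0 reads and no matched transcript model, so the exclusive bases are not known. The ratio was 7.29 (exact 95% interval 1.67 to 66.1), and the gene was too low for the filter. Tested with no filter, it had a log2 fold change of 2.70 (SE 1.11) and an edgeR adjusted p of 0.035. Adjusted p-values of that fit are not on the scale of the main fit. For Fgf4 with dTag9, edgeR with no filter gave an adjusted p of 2.4e-262, against 1.9e-20 in the main fit.

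Among the receptors, Fgfr2 had 7.85 and 7.91 CPM in no-LIF libraries, against 0.0883 and 0.118 CPM in LIF libraries. The no-LIF libraries held 92 and 58 reads and the LIF libraries 1 read each. The ratio was 78.1 (exact 95% interval 21.2 to 651), with an edgeR adjusted p of 6.8e-12, and 162 genes rose more. Fgf5, Fgf15 and Fgfr2 passed the filter on low counts through the no-LIF libraries, where they are high, so that they passed the test here is not by itself a result about FGF genes. Fgfr4 had 0.683 and 1.36 CPM in no-LIF libraries, against 3.80 and 4.94 CPM in LIF libraries. It fell by 2.16 on the log2 scale (SE 0.36), 4.48-fold, with an edgeR adjusted p of 8.7e-06. The sums are 18 reads without LIF and 85 with LIF.

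Markers of other lineages were also higher in the no-LIF libraries, where 34.0% of all tested genes passed as higher and 34.4% as lower. Formative and epiblast markers summed to 960 and 948 CPM in no-LIF libraries, against 104 and 124 CPM in LIF libraries, and 7 of 7 tested (11 listed) rose; Lef1 and Tead2, with 3 accessions each, were at 0 reads. Trophoblast markers summed to 1509 and 1403 CPM in no-LIF libraries, against 27.5 and 27.2 CPM in LIF libraries, with 7 of 8 tested higher and 1, Tfap2c, lower. Krt8 (499 CPM in no-LIF libraries, 10.1 CPM in LIF libraries) and Krt18 (851 CPM in no-LIF libraries, 7.84 CPM in LIF libraries) carried most of it, while Cdx2 averaged 2.12 CPM in no-LIF libraries and 0.794 CPM in LIF libraries. Primitive endoderm markers summed to 524 and 607 CPM in no-LIF libraries, against 84.7 and 67.9 CPM in LIF libraries, with 3 of 4 tested higher and 1 lower; Lamb1 again carried most of the sum (560.1 CPM in no-LIF libraries, 73.4 CPM in LIF libraries). Fibroblast markers summed to 912 and 870 CPM in no-LIF libraries, against 11.6 and 11.5 CPM in LIF libraries, with 5 of 6 tested (8 listed) higher. Tagln (744 CPM in no-LIF libraries, 1.94 CPM in LIF libraries) and Acta2 (127 CPM in no-LIF libraries, 0.50 CPM in LIF libraries) carried most of it, the collagen genes Col1a1, Col1a2 and Col3a1 averaged at most 6.88 CPM in no-LIF libraries, and Thy1 did not pass; Postn and Dcn, with several accessions each, were at 0 reads. Mesoderm and streak markers summed to 36.7 and 38.9 CPM in no-LIF libraries, against 30.5 and 30.0 CPM in LIF libraries, with 3 of 6 tested (8 listed) higher and 3 lower. Among the genes counted as higher, Sall2, Eomes, Sox7, Acta2 and Col3a1 passed the filter on low counts through the no-LIF libraries, where they are high. Hand2, counted as lower among the mesoderm and streak markers, passed it mainly through the LIF libraries, where it is high. Their part in these counts supports nothing. The part of cells of these lineages in the Fgf5, Fgf15, Fgf17 and Fgfr2 values was not tested.

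**Figure D2:**
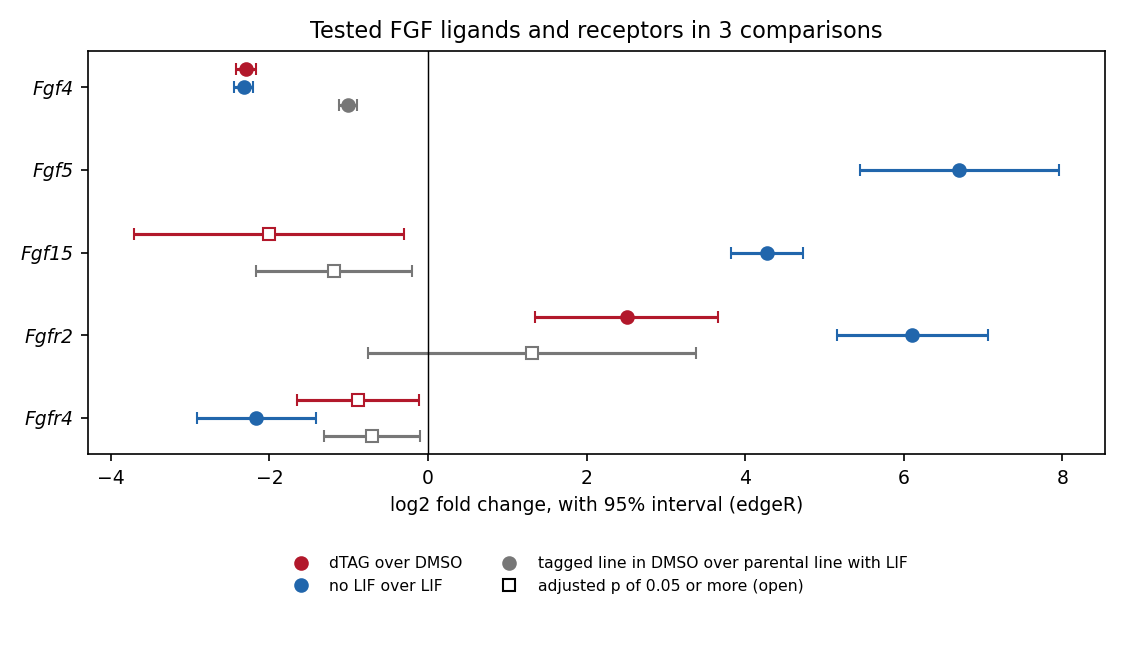
Log2 fold changes (edgeR, bars are 95% intervals) of the 5 tested genes for dTAG over DMSO, no LIF over LIF, and the OCT4-FKBP line in DMSO over the WT line with LIF; filled points passed an adjusted p of 0.05 and open squares did not. Fgf4 lies at -2.30 and -2.33 in the first 2 comparisons, while Fgf15 lies at -2.0 in the first and at 4.28 in the second; Fgf5 is drawn only where a group has more than 3 reads.

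The dTAG response was then set against the no-LIF response as a difference of log2 fold changes, tested in the same edgeR fit; 55.0% of tested genes passed that test, 28.6% with a higher and 26.4% with a lower value for dTag9. For Fgf4 the 2 falls differed by 0.03 (SE 0.08, 95% interval -0.14 to 0.20, adjusted p = 0.79 in edgeR), so a gap of more than 0.20 on the log2 scale lies outside the interval. For Fgf15 the difference was -6.28 (SE 0.87, edgeR adjusted p = 8.8e-07): 3 against 13 reads in the tagged line, and 604 against 32 reads in the WT line. It ran from -10.06 without dTAG replicate 1 to -5.35 without dTAG replicate 2. For Fgfr2 the rise was smaller with dTag9 than without LIF, a difference of -3.61 on the log2 scale (SE 1.08, edgeR adjusted p = 0.0064); without DMSO replicate 2 the call was lost (-3.66, edgeR adjusted p = 0.053). For Fgfr4 the difference was 1.29 (SE 0.55), just inside the threshold in edgeR (adjusted p = 0.049) and outside it in DESeq2 (1.24, adjusted p = 0.2). Time (24 h against 5 days), line and agent all differ between the responses and cannot be told apart.

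The 2 control groups were not alike for Fgf4. The OCT4-FKBP line in DMSO had 379 and 403 CPM, against 773 and 801 CPM in the WT line with LIF. The log2 difference was -1.01 (SE 0.05), 2.01-fold lower, with an edgeR adjusted p of 9.3e-14, in a comparison that called 40.6% of tested genes (22.1% of tested genes as lower). Fgf15 (log2 -1.18, SE 0.48, adjusted p = 0.051) and Fgfr4 (log2 -0.70, SE 0.29, adjusted p = 0.06) did not pass in edgeR. Fgfr2, with 5 reads in DMSO libraries and 2 reads in LIF libraries, did not pass either (log2 1.31, SE 1.0, edgeR adjusted p = 0.33). Other genes differed in the same comparison. Pou5f1 averaged 77.6 ± 0.218 CPM in DMSO libraries and 381 ± 63.0 CPM in LIF libraries (log2 -2.30, edgeR adjusted p = 3.5e-16). For Pou5f1 only sequence that belongs to 1 of its 2 annotated transcripts was counted. Cdx2 averaged 32.9 CPM in DMSO libraries and 0.794 CPM in LIF libraries (edgeR adjusted p = 1.5e-15). The trophoblast sum was 61.9 and 64.2 CPM in DMSO libraries, against 27.5 and 27.2 CPM in LIF libraries. Cdx2 is the largest part of the DMSO sum. Of the 8 tested genes of that list, 2 (Cdx2 and Krt8) were higher and 2 lower in DMSO libraries. The lower genes were Krt7 (log2 -1.70, edgeR adjusted p = 0.0067) and Ascl2 (log2 -0.95, edgeR adjusted p = 0.035). The list median was -0.02, and 18.5% of all tested genes were called higher. The part of these genes in the Fgf4 difference was not tested. The tag, the clone, DMSO and the culture cannot be told apart here, and this comparison shares its DMSO libraries with the first and its LIF libraries with the second.

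Across the 4 groups Fgf4 averaged 79.7 ± 4.26 CPM in dTAG, 391 ± 17.0 CPM in DMSO, 157 ± 2.16 CPM in no-LIF and 787 ± 20.3 CPM in LIF libraries (SD, n = 2 each). The order LIF, DMSO, no LIF, dTAG thus has no overlapping neighbours, and the dTAG level lay below the level after 5 days without LIF; the dTAG and no-LIF groups come from different lines and were not tested against each other. Fgfr4 ran in the order LIF, DMSO, dTAG, no LIF, and its last 2 groups overlapped (1.20 and 1.66 CPM in dTAG, 0.683 and 1.36 CPM in no-LIF libraries). Fgfr2 ran in another order, with no LIF highest, then dTAG, then the 2 control groups at 5 and 2 reads. Levels of different genes can be compared per length for those with 1 accession. Per kilobase of transcript, Fgf4 averaged 26.3 CPM in dTAG, 129 CPM in DMSO, 51.8 CPM in no-LIF and 259.7 CPM in LIF libraries. On the same scale the Fgf15 level was 0.0907 CPM in dTAG, 0.360 CPM in DMSO, 17.3 CPM in no-LIF and 0.878 CPM in LIF libraries. Fgfr4 stood at 0.431 CPM in dTAG, 0.791 CPM in DMSO, 0.308 CPM in no-LIF and 1.31 CPM in LIF libraries, per kilobase. In all 4 groups Fgf4 was the highest of the 3 per length. Fgf15 was above Fgfr4 in the no-LIF group and below it in the other 3 groups.

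The Fgfr2 reads could be divided between 2 accessions. From general knowledge, and not from the tables used here, NM_010207 is taken as the IIIc form of the receptor, known from mesenchyme, and NM_201601 as the IIIb form, known from epithelia; these forms differ in an immunoglobulin-like domain and so in the FGFs they bind. Against each other, NM_010207 has 490 exclusive bases, all coding, and NM_201601 has 1478, of which 148 are coding, so a read need not fall on the exon that gives the form its name. NM_010207 had 15 and 13 reads in dTAG libraries, against 2 and 3 reads in DMSO libraries. It had 70 and 46 reads in no-LIF libraries, against 1 and 1 in LIF libraries. Tested alone in edgeR it rose in both, by 2.46 with dTag9 (SE 0.57, adjusted p = 0.00092) and by 5.75 without LIF (SE 0.50, adjusted p = 7.5e-11), on the log2 scale. NM_201601 had 1 and 0 reads in dTAG libraries, against 0 in DMSO libraries, and 22 and 12 reads in no-LIF libraries, against 0 in LIF libraries. The edgeR adjusted p was 4e-06 without LIF and 0.39 with dTag9, but this accession passed the filter only through the no-LIF libraries, where it is high, and was tested against 0 reads. Of the 150 Fgfr2 reads without LIF, 34 belonged to NM_201601 (22.7%, Wilson 95% interval 16.7 to 30), and of the 29 with dTag9, 1 did (3.45%, Wilson 95% interval 0.611 to 17.2). The intervals cover counting error only and overlap, and the difference of the shares was not tested. The remaining accession, NM_001347638, had 0 reads. It had no matched transcript model, so bases shared with it were not taken off the exclusive bases above.

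**Figure D3:**
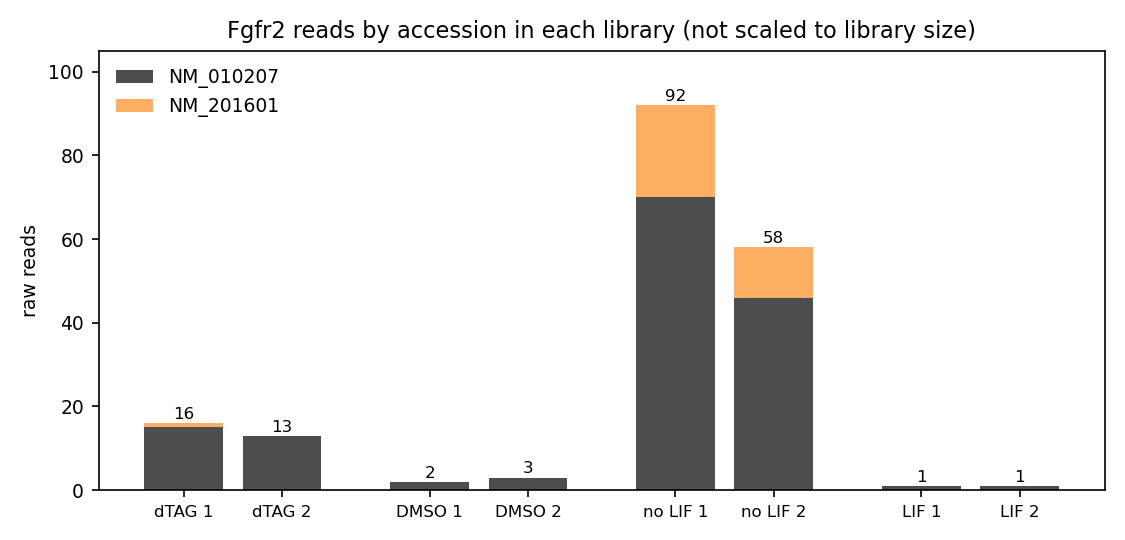
Raw reads of Fgfr2 in each of the 8 libraries (linear axis, not scaled to library size), stacked by accession, with the total above each bar. The no-LIF libraries hold 92 and 58 reads with a visible NM_201601 part of 22 and 12, and the dTAG libraries hold 16 and 13 reads with 1 and 0 from NM_201601.

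Other genes of the pathway were read from lists by role. Of 18 other FGF ligands, 6 were tested, and 3 of these had more than 3 reads in the dTAG or the DMSO group. With dTag9, 0 of the 3 rose and 2 fell, Fgf10 and Fgf3, beside 40.5% called over all tested genes; the count of called genes was 1 without DMSO replicate 2 and at most 3 when any other library was left out. Fgf10, a ligand of lung and limb budding, averaged 7.87 ± 0.471 CPM in dTAG libraries and 50.7 ± 1.15 CPM in DMSO libraries (SD, n = 2 each; log2 -2.68, edgeR adjusted p = 6.4e-16). Without LIF it averaged 3.95 ± 0.393 CPM, against 50.9 ± 1.06 CPM with LIF (log2 -3.70, edgeR adjusted p = 1.6e-18). Fgf10 thus lay low in the same groups as Fgf4. Its DMSO and LIF levels had a ratio of 0.995 (exact 95% interval 0.909 to 1.09, counting error only). The Fgf4 level, by contrast, was lower in DMSO libraries. Fgf3, the gene next to Fgf4 in the RefSeq order (Fgf3, Fgf4, Fgf15), had 57 reads in dTAG libraries, against 130 in DMSO libraries, and fell by 1.15 on the log2 scale (edgeR adjusted p = 0.00074). Without LIF it had 3 reads, against 155 with LIF, a ratio of 0.0201 (exact 95% interval 0.00411 to 0.0600). Of the 3 neighbours, Fgf3 and Fgf4 fell without LIF while Fgf15 rose.

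Without LIF, 3 of the 6 tested other ligands, Fgf1, Fgf8 and Fgf13, were called higher and 2 lower, beside 68.4% called over all tested genes. These 3 passed the filter on low counts only through the no-LIF libraries, where they are high, so their count supports nothing; with a minimum of 5 CPM, 2 of the list were called, and among genes with 1 accession, 3. Fgf8, a ligand of the primitive streak, had 29 and 18 reads in no-LIF libraries, against 0 in LIF libraries and in both groups of the tagged line. It was at least 16.3-fold higher without LIF, taking 3 reads over the LIF group as the floor, and its 4 accessions limit what is counted. Fgf13, an intracellular member of the family that acts on sodium channels, had 55 reads in no-LIF libraries, against 9 in LIF libraries (ratio 6.36, exact 95% interval 3.12 to 14.6).

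Co-receptors, binding proteins and heparan sulfate genes moved in both directions. Of 29 listed, 21 were tested; 8 rose and 6 fell with dTag9, beside 20.1% of all tested genes called higher and 20.3% lower, with a median log2 fold change of 0.42 against 0 over all tested genes. Without LIF, 10 rose and 7 fell, beside 34.0% of all tested genes called higher and 34.4% lower, with a median of 0.32 against -0.02 over all tested genes. Of those that rose, Ndst1 with dTag9 and Sulf1 without LIF passed the filter on low counts only through the libraries where they are high. Their part in these counts supports nothing. Fgfbp3, a secreted FGF carrier, averaged 31.9 ± 1.0 CPM in dTAG libraries and 1.40 ± 0.606 CPM in DMSO libraries (log2 4.60, edgeR adjusted p = 1.2e-15). Fgfrl1, a receptor-like protein without a kinase domain, averaged 20.1 ± 1.28 CPM in dTAG libraries and 3.37 ± 0.206 CPM in DMSO libraries (log2 2.55, edgeR adjusted p = 4.7e-11). Without LIF Fgfrl1 went the other way, with 1.03 ± 0.110 CPM in no-LIF libraries and 2.56 ± 0.873 CPM in LIF libraries (log2 -1.23, edgeR adjusted p = 0.0049). The heparan sulfate proteoglycan Gpc1 averaged 156 ± 13.3 CPM in no-LIF libraries and 28.1 ± 3.23 CPM in LIF libraries (log2 2.49, edgeR adjusted p = 5.7e-18). Sdc4, a syndecan, averaged 157 ± 3.12 CPM in no-LIF libraries and 493 ± 1.74 CPM in LIF libraries (log2 -1.65, edgeR adjusted p = 3.2e-19), and it was higher with dTag9 (log2 0.59, edgeR adjusted p = 6.9e-10).

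Of the adaptors and the RAS, RAF, MEK and ERK genes, 17 were tested (23 listed); 2 rose and 4 fell with dTag9, beside 40.5% called over all tested genes. Their median log2 fold change was 0.03. Without LIF, 7 rose and 4 fell, a share close to the 68.4% called over all tested genes, with a median of 0.08. Braf, a MEK kinase, averaged 320 ± 19.6 CPM in no-LIF libraries and 156 ± 0.451 CPM in LIF libraries (log2 1.04, edgeR adjusted p = 2.1e-14). Plcg1, a phospholipase that receptors activate, fell to 74.9 ± 0.316 CPM in dTAG libraries, against 112 ± 3.87 CPM in DMSO libraries (log2 -0.58, edgeR adjusted p = 3.3e-07). With dTag9, the GTPase gene Nras fell (log2 -0.49, edgeR adjusted p = 1.3e-07), and Braf did not pass (log2 0.00, edgeR adjusted p = 0.97).

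Feedback regulators and targets of FGF and ERK rose in number without LIF: of 15 tested (19 listed), 13 rose and 1 fell, beside 34.0% of all tested genes called higher, with a median of 1.91. Of the 13, Fosl1 passed the filter on low counts only through the no-LIF libraries, where it is high, so its part in the count supports nothing. With dTag9, 5 rose and 4 fell of the 14 with a fold change, beside 40.5% called over all tested genes, with a median of -0.32. Dusp6, a phosphatase that removes the activating phosphates of ERK, had 327 and 333 CPM in no-LIF libraries, against 8.21 and 6.47 CPM in LIF libraries (log2 5.47, edgeR adjusted p = 5.1e-25). With dTag9 it had 11.4 and 13.1 CPM, against 11.1 and 12.1 CPM in DMSO libraries (log2 0.07, edgeR adjusted p = 0.74). Il17rd, a membrane inhibitor of FGF receptor signalling, averaged 400 ± 11.6 CPM in no-LIF libraries and 106 ± 0.796 CPM in LIF libraries (log2 1.91, edgeR adjusted p = 5.7e-20), and it fell with dTag9 (log2 -0.53, edgeR adjusted p = 2.2e-07). The inhibitor gene Spry2 fell to 89.2 ± 2.90 CPM in dTAG libraries, against 207 ± 4.52 CPM in DMSO libraries (log2 -1.22, edgeR adjusted p = 1.5e-14), and it was the 1 gene of the list that fell without LIF (log2 -0.22, edgeR adjusted p = 0.0016). Phlda1 rose in both, to 173 ± 5.45 CPM in dTAG libraries, against 6.77 ± 0.743 CPM in DMSO libraries, and to 26.6 ± 0.245 CPM in no-LIF libraries, against 4.21 ± 0.206 CPM in LIF libraries. In the test of the difference between the responses, 10 of the 14 were lower with dTag9 than without LIF and 3 were higher, beside 26.4% of all tested genes lower and 28.6% higher.

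**Figure D4:**
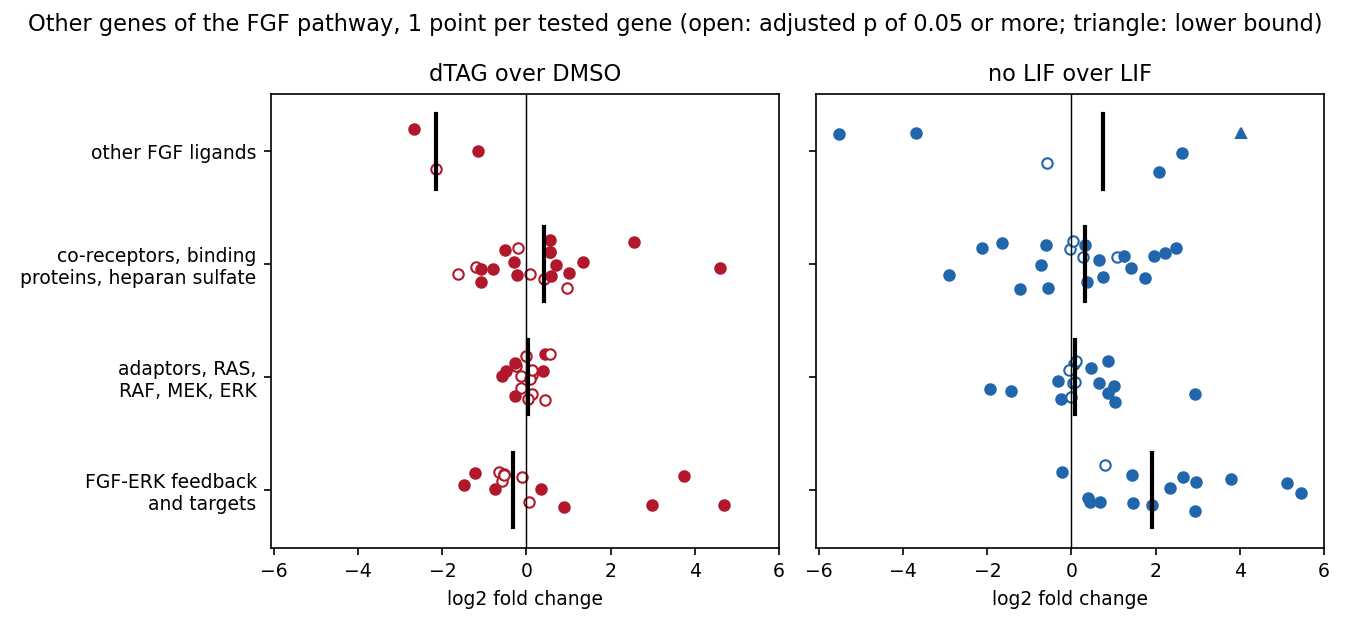
Log2 fold changes of the tested genes in 4 lists of the FGF pathway for dTAG over DMSO (left) and no LIF over LIF (right), 1 point per gene with more than 3 reads in either group; filled points passed an adjusted p of 0.05, the triangle is Fgf8 at its lower bound, and black bars are list medians. The feedback list sits mostly above 0 without LIF (median 1.91) and on both sides of 0 with dTag9 (median -0.32).

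Genes whose levels followed an FGF gene most closely were found among 6920 candidates as those with the smallest root mean square difference of centred log2 CPM over the 8 libraries, which fall into 4 groups. Nearest to Fgf4 were Gtsf1l (0.28) and Tdrd12 (0.29), a gene of the piRNA pathway. Tdrd12 averaged 38.4 CPM in dTAG, 136 CPM in DMSO, 43.9 CPM in no-LIF and 278 CPM in LIF libraries. Nearest to Fgf15 were the glutamate transporter gene Slc1a3 (0.35) and the transcription factor gene Sox3 (0.38). Sox3 averaged 0.220 CPM in dTAG, 0.843 CPM in DMSO, 48.2 CPM in no-LIF and 1.81 CPM in LIF libraries. Nearest to Fgfr2 were the protocadherin gene Pcdh1 (0.20) and Lin28a (0.25), which encodes an RNA-binding blocker of let-7 maturation. Lin28a averaged 457 CPM in dTAG, 84.8 CPM in DMSO, 1828 CPM in no-LIF and 84.6 CPM in LIF libraries. For Fgfr4, the nearest were Tent5c (0.16) and Ttll13 (0.17), both as scarce as Fgfr4, at 1.60 and 1.71 CPM in dTAG libraries. Fgf5, with fewer than 20 reads per library on average, was below the minimum for this search.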

How the data were processed

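For each library the authors deposited 1 table with the raw count of reads for each of 41565 RefSeq transcript accessions. Per the submitters' processing notes, HISAT2, HTSeq and the mm9 build were used, with no versions named; libraries were poly(A)-selected with a strand-marking kit and read from 1 end, per the labels' protocols. The sources used here do not give the strand setting of the counting. Counts were summed per gene symbol, matched through RefSeq (41325 accessions) and GENCODE (126), both on GRCm38 and used for names, transcript models and sequences only; 114 accessions had no symbol. HTSeq summary lines stayed out of library sizes. Reads without a feature were 10.4% to 14.9% of uniquely aligned reads. The design had assumed counts per gene, and the sum was chosen once the tables were seen to hold transcripts.

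Genes were tested in edgeR 4.0.16 (R 4.3.3; TMM, filterByExpr, glmQLFit, glmQLFTest) in 1 fit of 4 groups over 8 libraries, with 4 residual degrees of freedom and a biological coefficient of variation of 4.43%. P-values were adjusted by the Benjamini-Hochberg method across the 10311 genes. CPM values are counts scaled to the TMM-adjusted library size. Groups with 3 reads or fewer on both sides have no fold change. Ratios of reads per depth have exact conditional 95% intervals, computed in R from reads summed over each group. All of these intervals cover counting error only, not the spread between libraries. Wilson intervals were computed in scipy 1.17.1. Scripts were tested on simulated data. Alternatives were DESeq2 1.42.0, other scalings and filters, a replicate block, each accession alone, genes with 1 accession, subsets of groups and leaving out each library. Replicate numbers do not pair libraries: deviations of libraries with the same number correlated at -0.0098 to 0.0462.

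The FGF genes and the lists were chosen with earlier results of these data known. Of each pathway list, the 2 genes with the smallest adjusted p in each of the dTAG and no-LIF comparisons were to be named, with 1 result not reported here; Fgf8, Fgf13 and the marker genes at 0 reads were named after their values were seen. The genes nearest in pattern had 1 accession and a mean of at least 20 reads per library. Likewise the GC box and the enhancer pattern were chosen after values were seen.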

Additional observations from a re-analysis of the deposited data

Results flagged for a closer look

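The response to dTag9 and the response to LIF withdrawal differed, by the test of the difference in edgeR, for 3 of the 4 FGF genes with a fold change in both; 55.0% of all tested genes differed as well, so a call here is common. Fgf15 differed by -6.28 on the log2 scale, having few reads in the tagged line and rising 19.4-fold without LIF. Fgfr2 differed by -3.61, higher in both but less with dTag9. Fgfr4 differed by 1.29, with log2 changes of -0.88 with dTag9, which did not pass, and -2.16 without LIF; this difference has an edgeR adjusted p of 0.049, and the call is lost in DESeq2 (adjusted p = 0.2) and with RLE scaling (adjusted p = 0.056). The responses come from different lines, agents and times.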

How the results depend on the processing

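Over all alternatives, 223 of 252 fold changes of the FGF genes kept their direction and side of the threshold, including 75 of 75 for LIF withdrawal and 30 of 30 for Fgf4 and Fgfr2 with dTag9. The counts of called genes stayed within 1.5 times, in 63 of 63. The Fgf4 difference between responses, near 0 throughout, changed sign to -0.0063 with RLE scaling and with DESeq2, and ran from -0.0279 to 0.0792 when single libraries were left out. The Fgfr4 difference lost its call with RLE scaling (1.25, adjusted p = 0.056), in DESeq2 (1.24, adjusted p = 0.2) and with each accession tested alone (1.28, adjusted p = 0.05), and ran from 0.77 to 1.74 over left-out libraries (adjusted p 0.026 to 0.31). The Fgfr2 difference ran from -3.79 to -3.40, and lost its call without DMSO replicate 2 (-3.66, adjusted p = 0.053). Fgf15 with dTag9 gained a call with no filter (-2.0, adjusted p = 0.045) and ran from -5.78 to -1.07 over left-out libraries (adjusted p 0.011 to 0.45); without dTAG replicate 1 its dTAG group has 0 reads. Fgfr4 with dTag9 gained a call among genes with 1 accession (-0.88, adjusted p = 0.047) and in a fit of those 4 libraries only (-0.88, adjusted p = 0.043), and ran from -1.13 to -0.67. In DMSO against LIF, Fgf15 gained a call with no filter (-1.15), with a minimum of 5 CPM (-1.20) and among genes with 1 accession (-1.17), and ran from -1.87 to -0.83. Fgfr4 there gained a call with a replicate block (-0.75, adjusted p = 0.041) and among genes with 1 accession (-0.68, adjusted p = 0.048). Adjusted p-values with no filter are not on the scale of the main fit. The causes were not tested.

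The replicate block, whose numbers do not pair the libraries, called 4214, 7082, 5690 and 4205 genes for dTAG, no LIF, their difference and DMSO against LIF, beside 4175, 7056, 5671 and 4191 without it, and changed no other call of the FGF genes. Of the list counts, 237 of 252 stayed within 1.5 times.

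Depth limits Fgf5, Fgf17 and Fgfr2 in the tagged line and in LIF libraries, where groups hold 0 to 5 reads, or 29 for Fgfr2 with dTag9. Fgfr1 and Fgfr3 cannot be read from these counts. With 2 libraries a group, an exact permutation test of a single gene could not pass the threshold, so every call rests on the spread shared across genes in edgeR.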
